A study of Mus musculus with 5 samples.

Results

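Lipid droplets are stores of neutral lipid wrapped in a single layer of phospholipid and coated with proteins. The genes described here are 10 that encode such coat proteins or control them: Hilpda, the perilipins Plin1 to Plin5, the CIDE family genes Cidea, Cideb and Cidec, and the nuclear receptor gene Pparg. They were picked by gene symbol out of 56691 gene IDs in the count table, with earlier results of the same GFP over bulk comparison known, among them a rise of Hilpda. Their values are therefore given as a description, and no p-value is given for a member. Total RNA was sequenced from keratinocytes of back skin of mice aged 28 days. There were 3 libraries of cells sorted for GFP and labelled as Lrig1 positive keratinocytes of the epidermal stem cell type (GFP 1, 2 and 3). The other 2 libraries held the entire population without that sort, labelled as wild-type basal keratinocytes (bulk 1 and 2). The labels do not name the construct that carries GFP, the promoter that drives it or the sort gates, nor do they say whether each library is 1 animal. All 5 libraries come from the same tissue at the same age, with no treatment named. The question was how the Lrig1 positive cells differ from the whole population.

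Coat proteins decide how fast a droplet gives up its lipid. Perilipins shield the stored triglyceride from the lipase encoded by Pnpla2, and Hilpda, a small protein induced by low oxygen through hypoxia-inducible factor (HIF), binds and inhibits that lipase. CIDE proteins fuse small droplets into larger ones. In skin, large droplets are typical of sebocytes, the cells of the sebaceous gland, and of dermal fat cells, and Pparg is needed for both cell types to form. Plin2 and Plin3 are made in most tissues, while Plin1 and Plin4 are typical of fat cells, Plin5 of tissues that burn much fat, and Cidea, in the mouse, of brown fat and sebaceous gland.

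Depth was 56829330 to 105887450 counts per library. Among 18583 genes that passed the filter on low counts, 982 were called by edgeR at an adjusted p under 0.05, or 5.28%. These were 27 higher, or 0.145% of the genes tested, and 955 lower, or 5.14%. GFP 3 alone had abundant Xist, the transcript of female cells, with 53714 counts against 0 to 8 in the other 4 libraries (the labels give no sex). Lrig1 itself stood at 210 to 226 CPM in GFP-sorted cells and 155 and 163 CPM in bulk cells (CPM, read counts scaled to library size with the TMM method). Its log2 change was 0.44 ± 0.18 (SE) and was not called (edgeR adjusted p = 0.292). Genes of a basal keratinocyte list summed to 36070 to 44460 CPM in GFP-sorted libraries and 23290 and 26530 CPM in bulk libraries. Those of a suprabasal list summed to 8566 to 12060 CPM in sorted libraries and 17040 and 21820 CPM in bulk libraries. The bulk libraries, labelled basal, also carried markers of inner root sheath and hair shaft, at 1524 and 2900 CPM, against 46.7 to 55.4 CPM in sorted libraries. In RNA from many cells, fewer cells of a type and less RNA per cell cannot be told apart.

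Of the 10 members, 6 passed the filter: Hilpda, Plin2, Plin3, Plin4, Cidea and Pparg. Plin1, Plin5, Cideb and Cidec had 0 to 16 counts per library and were not tested. The fit across all genes called Hilpda higher and Plin4 lower, and nothing is read from this count, because the members were chosen with this comparison known. The libraries of the groups did not overlap for 3 of the 6 that passed. Hilpda and Plin3 were higher in all GFP-sorted libraries, as were 14.6% of all genes tested. Plin4 was lower in all of them, as were 18.5% of all genes tested. It passed the filter only through the bulk libraries, at 9 and 13 counts, so nothing is read from its being lower.

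**Figure D1:**
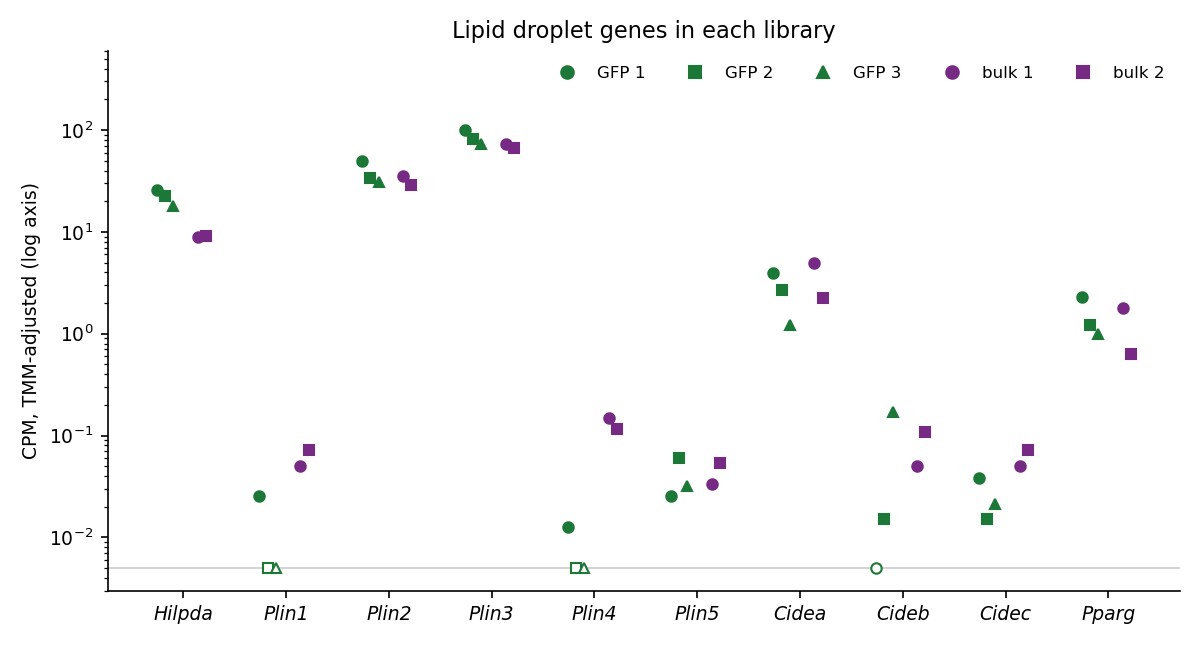
CPM of each of the 10 genes in the 3 GFP-sorted (green) and 2 bulk (purple) libraries, on a log axis; each point is 1 library, its shape is the replicate number, and open points on the grey line had 0 counts. Plin3, Plin2 and Hilpda lie above 8 CPM in every library, Cidea and Pparg between 0.628 and 4.90 CPM, and the other 5 genes below 0.2 CPM.

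Hilpda (ENSMUSG00000043421.9) was the one member with a clear upward difference. It was at 25.95, 22.45 and 18.08 CPM in GFP 1, 2 and 3, against 8.94 and 9.09 CPM in bulk 1 and 2. All 3 sorted libraries lay well above both bulk libraries, which were almost equal to each other. The means were 22.2 ± 3.94 CPM in sorted cells and 9.01 ± 0.102 CPM in bulk cells (SD, n = 3 and 2), a log2 change of 1.30 ± 0.23 (SE) with a 95% interval of 0.77 to 1.83. That is 2.46-fold, with an interval of 1.70-fold to 3.55-fold. Between libraries with the same number in their titles, the log2 difference was 1.53 for GFP 1 over bulk 1 and 1.30 for GFP 2 over bulk 2. GFP 3 has no bulk library of its number. The genome-wide call of Hilpda was lost without bulk replicate 1 or bulk replicate 2, fits that leave 1 bulk library, while the log2 change stayed at 1.29 and 1.30.

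Hilpda has 2 annotated starts in RefSeq. The 250 bases before each start were searched on both strands for ACGTG and GCGTG, the core letters of the site that HIF binds, because Hilpda is a known HIF target and differed most among the abundant members. Either core occurred in 38.6% of all 32851 promoter windows of this length in the RefSeq table, so a match is common. The window before the upstream start held no core (GRCm38.p6, chr6:29272238-29272487, plus strand):

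Hilpda upstream start: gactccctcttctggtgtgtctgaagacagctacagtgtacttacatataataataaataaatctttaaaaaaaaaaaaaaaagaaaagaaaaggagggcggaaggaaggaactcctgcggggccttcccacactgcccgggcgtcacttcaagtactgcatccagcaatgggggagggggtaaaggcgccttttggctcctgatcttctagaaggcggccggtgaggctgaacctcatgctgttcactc

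The window before the downstream start held 3 cores, a number that 6.58% of all windows reached or passed. They begin 111, 43 and 8 bases before that start. The cores at 111 and 43 bases lie in an annotated exon of Hilpda, and the core at 8 bases does not. Each is shown with up to 12 bases on either side and the core in capitals (GRCm38.p6, plus strand, chr6:29272503-29272531, chr6:29272571-29272599 and chr6:29272606-29272625), beside the single core of the Plin2 window, 86 bases before its start (minus strand, chr4:86670129-86670157), which is the reverse complement of GCGTG:

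Hilpda site at 111: caaccgcgagccGCGTGctttccgtgact
Hilpda site at 43: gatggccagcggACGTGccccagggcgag
Hilpda site at 8: caggttcggtacGCGTGcgc
Plin2 site at 86: ggttggggttccCACGCcctcatccccaa

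The Plin3 window held neither core (GRCm38.p6, chr17:56290512-56290761, minus strand) and is shown for comparison, since Plin3 is the most abundant member in CPM:

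Plin3 start: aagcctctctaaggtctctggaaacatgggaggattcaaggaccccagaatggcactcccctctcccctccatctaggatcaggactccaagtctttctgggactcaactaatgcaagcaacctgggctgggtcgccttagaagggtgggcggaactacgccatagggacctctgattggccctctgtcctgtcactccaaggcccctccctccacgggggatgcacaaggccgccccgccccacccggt

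Cores were also found before members that were not called higher in sorted cells. There was 1 before each of the 2 Plin5 starts, 1 before one of the Cidec starts and 2 before one of the Pparg starts, while the windows of Plin1, Plin4 and Cideb held none. These are letter matches in the reference genome, with no measurement of binding in these data. The DR1 element that PPAR binds, AGGTCA repeated after 1 base, was found in none of the 14 windows of the 9 members in the table, and in 0.0335% of all windows. Its single unit AGGTCA occurred in 14% of all windows and was present before Plin2, before 1 of the Plin5 starts and before 2 of the Pparg starts.

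The perilipins split into a pair of abundant genes and 3 near the limit of detection. Plin3 (ENSMUSG00000024197.11), a perilipin that moves onto small new droplets from the cytosol, was at 100.7, 80.9 and 72.8 CPM in GFP 1, 2 and 3, against 72.1 and 66.1 CPM in bulk 1 and 2. The groups did not overlap, but GFP 3 and bulk 1 were nearly equal. The means were 84.8 ± 14.4 CPM in sorted cells and 69.1 ± 4.21 CPM in bulk cells, and the log2 change of 0.29 ± 0.20, with an interval of -0.17 to 0.76, was not called. Plin2 (ENSMUSG00000028494.13), the perilipin bound to droplets in most cells, was at 49.6, 34.2 and 30.5 CPM in GFP 1, 2 and 3. It was at 35.1 and 28.9 CPM in bulk 1 and 2, so that bulk 1 lay above GFP 2 and GFP 3. Its log2 change was 0.25 ± 0.25, with an interval of -0.33 to 0.83, and was not called. The interval of neither gene reaches 1, that is, a doubling, and neither excludes 0.

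With the title number as a replicate block, the fit gave a log2 change of 0.37 for Plin2 and 0.39 for Plin3, and called both. GFP 3, alone in its block, does not enter the group difference of a blocked fit. It is the lowest sorted library for both genes. That fit called 36% of all genes tested, 16.4% higher and 19.7% lower, beside its 4 called members, Hilpda, Plin2, Plin3 and Plin4. With the block and a correction for gene length and GC content, 31.4% of the genes were called, 16.5% higher and 14.8% lower. Hilpda and Plin4 were again called, Plin3 was called at 0.47 and Plin2 was not, at 0.25.

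**Figure D2:**
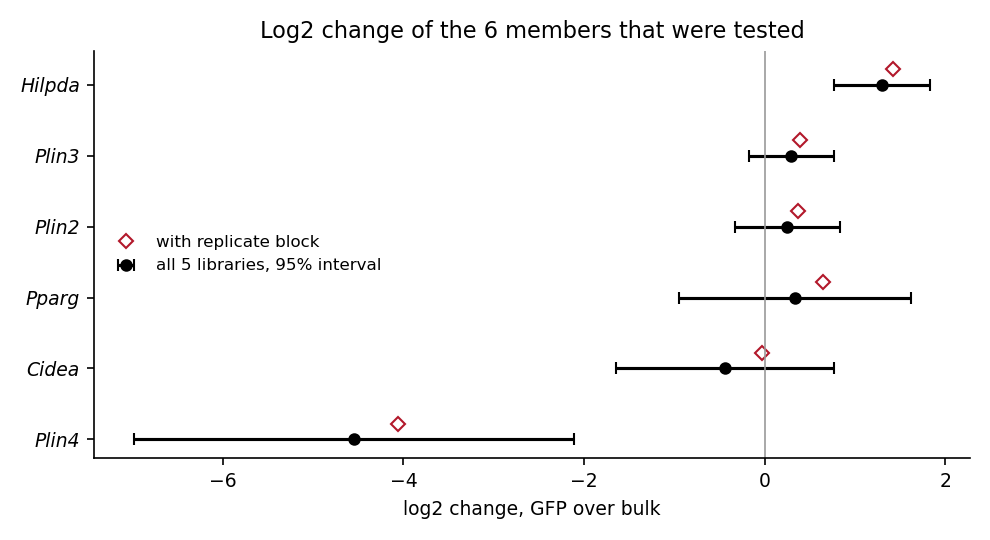
Log2 change, GFP over bulk, of the 6 members that passed the filter; black points and bars are the fit over all 5 libraries with its 95% interval, and open red diamonds the fit with the replicate block. The intervals of Plin3, Plin2, Pparg and Cidea span 0, that of Hilpda runs from 0.77 to 1.83, and that of Plin4, which rests on 1 count in sorted and 22 in bulk libraries, from -6.98 to -2.11.

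Within a library, ratios between members do not depend on how libraries are scaled. Per kilobase of the longest transcript, Hilpda RNA was 1.01, 1.26 and 1.14 times that of Plin2 in GFP 1, 2 and 3, against 0.489 and 0.605 times in bulk 1 and 2. Relative to Plin3 it was 0.957, 1.03 and 0.923 times in the sorted libraries, against 0.460 and 0.510 times in bulk libraries. The mean Hilpda ratio in sorted cells was 2.08-fold that in bulk cells relative to Plin2 and 2-fold relative to Plin3. The groups did not overlap, but the share of all gene pairs that do not overlap was not computed. The ratio of Plin3 to Plin2 overlapped between the groups, at 1.05, 1.23 and 1.24 in GFP 1, 2 and 3 and 1.06 and 1.19 in bulk 1 and 2. With the union of exons as length the ratios to Plin2 are higher by over 1.5 times, with Hilpda over Plin2 at 1.67 to 2.09 in sorted libraries and 0.810 and 1.001 in bulk libraries, and Plin3 over Plin2 at 1.88 to 2.21 in sorted libraries and 1.90 and 2.12 in bulk libraries. Among the RNA of the 10 members per kilobase, Hilpda made up 32.8 ± 1.73% in sorted cells and 18.8 ± 2.29% in bulk cells (SD, n = 3 and 2).

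**Figure D3:**
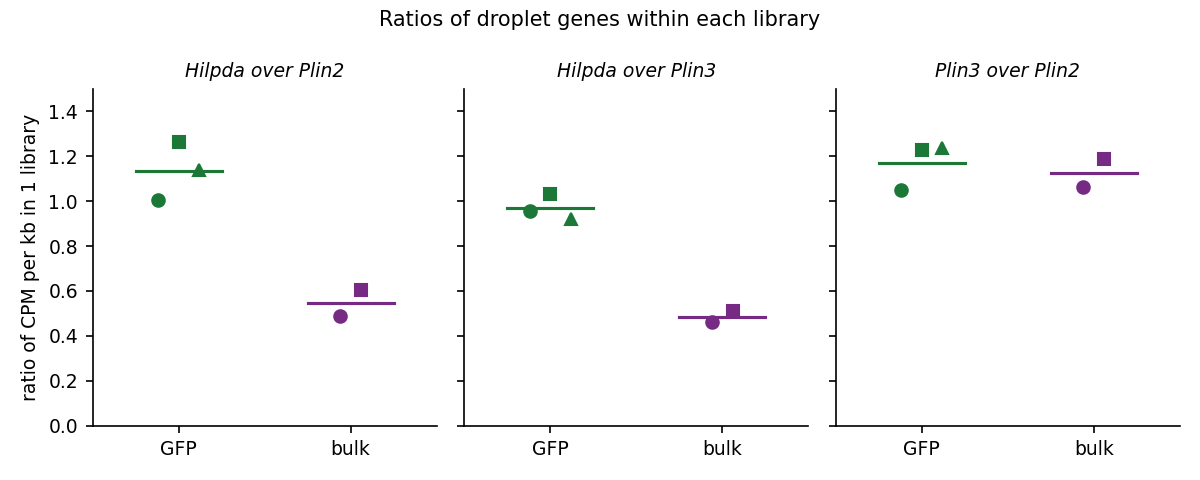
Ratio of CPM per kilobase of the longest transcript between pairs of genes within 1 library, for Hilpda over Plin2, Hilpda over Plin3 and Plin3 over Plin2; points are libraries (green GFP, purple bulk, shape by replicate number) and lines are group means. The Hilpda ratios are about 1 in sorted libraries and about 0.5 in bulk libraries, while Plin3 over Plin2 lies between 1.05 and 1.24 in all 5.

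On the scale of CPM per kilobase, sorted cells held 23.3 ± 3.94 of Plin3, 22.6 ± 4.01 of Hilpda and 20.2 ± 5.37 of Plin2. Cidea followed at 2.36 ± 1.24 and Pparg at 0.706 ± 0.328. These SDs are spreads between libraries and do not measure the difference between genes of the same library. Within a library, Plin3 over Plin2 was 1.051 to 1.235 in all 5, and Hilpda over Plin2 was 1.006 to 1.264 in the sorted ones. In bulk cells Plin3 was at 19.0 ± 1.16, Plin2 at 16.95 ± 2.34 and Hilpda at 9.18 ± 0.104, so Hilpda stood below both perilipins there. Cidea was at 3.21 ± 1.68 and Pparg at 0.565 ± 0.381 in bulk cells. The order of Plin2 depends on the length used: over the union of its exons it falls to 10.9 in sorted cells, below Hilpda at 20.1 and Plin3 at 22.4. Plin2 and Plin3 together were nearly all perilipin RNA. Plin3 made up 53.8 ± 2.26% of the 5 perilipins per kilobase in sorted cells and 52.8 ± 1.90% in bulk cells, and Plin2 46.1 ± 2.27% in sorted cells and 47.0 ± 1.94% in bulk cells.

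The perilipins typical of fat cells had few counts in either group. Plin4 (ENSMUSG00000002831.15), a coat protein of fat cells and muscle, had 1, 0 and 0 counts in GFP 1, 2 and 3, against 9 and 13 counts in bulk 1 and 2. Relative to depth the sorted cells held 0.0326 times the bulk level, with an exact 95% interval of 0.000791 to 0.202 that covers counting error only. The genome-wide fit called it lower, with a log2 change of -4.54 that depends on the prior count used, and the call was lost in 4 alternatives, among them the DESeq2 Wald test and the fit without GFP replicate 2. Plin4 fell under the filter in 5 others, and in the main fit it passed only through the bulk libraries. Plin4 also overlaps a gene on the opposite strand, Hdgfl2, and reads of the pair cannot be told apart where strand is not stated. Plin1 (ENSMUSG00000030546.15), the main coat of the fat cell droplet, had 2, 0 and 0 counts in the sorted libraries, against 3 and 8 in bulk libraries, a ratio of 0.131 with an interval of 0.0141 to 0.598. For a count of 0 the exact 95% interval reaches 0.0556 CPM in GFP 2 and 0.0395 CPM in GFP 3. Plin5 (ENSMUSG00000011305.12), which ties droplets to mitochondria, had 2, 4 and 3 counts in the sorted libraries, against 2 and 6 in bulk libraries, a ratio of 0.808 with an interval of 0.277 to 2.41.

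Markers of fat cells were examined beside Plin4 and Plin1, from whose few counts no pattern is read. The 12 genes of the adipocyte list summed to 14.4 to 26.6 CPM in sorted libraries and 32.5 and 42.6 CPM in bulk libraries. Most of this came from Lpl and Fabp4, which other skin cells also express. Without Fabp4 the other 11 summed to 25.7, 24.8 and 14.2 CPM in GFP 1, 2 and 3, against 22.1 and 15.8 CPM in bulk 1 and 2. These groups overlapped, but Lpl held most of the sum, at 11.4 to 23.5 CPM in sorted libraries and 11.2 and 18.1 CPM in bulk libraries. The defining genes were at or near 0 in both groups: Adipoq had at most 0.0603 CPM in sorted libraries and 0.100 CPM in bulk libraries, and Lep, Slc7a10 and Ucp1 had at most 0.0167 CPM in any library. Of the 5 adipocyte genes tested, Fabp4 fell and no other was called. The log2 change was below 0 for 4 of the 5, with a median of -1.43, and above 0 for Lpl. At an unadjusted edgeR p below 0.05 there were 3 of the 5, a level that 15.8% of all genes tested reached. The part of fat cells in the Plin4 and Plin1 values was not tested.

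Among the CIDE genes, Cidea was the one expressed above a trace. Cidea (ENSMUSG00000024526.10), which promotes the fusion of droplets in brown fat and sebocytes of the mouse, was at 3.98, 2.68 and 1.22 CPM in GFP 1, 2 and 3, against 4.90 and 2.25 CPM in bulk 1 and 2. The groups overlapped, and the libraries within each group differed more than the group means. The log2 change was -0.44 ± 0.52, with an interval of -1.65 to 0.77, and was not called. It was -0.03 with the replicate block, and 0.23 without bulk replicate 1. Cidec (ENSMUSG00000030278.12), the fusion protein of white fat cells, had 3, 1 and 2 counts in sorted libraries, against 3 and 8 in bulk libraries, a ratio of 0.392 with an exact interval of 0.119 to 1.16. Cideb (ENSMUSG00000022219.11), known from liver and gut, had 0, 1 and 16 counts in GFP 1, 2 and 3, so that nearly all of its sorted counts came from GFP 3. It had 3 and 12 counts in bulk 1 and 2, and a ratio of 0.814 with an interval of 0.382 to 1.75. Cidea and Cideb each overlap a gene on the opposite strand, B430212C06Rik and Nop9, whose reads could be shared.

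Pparg (ENSMUSG00000000440.13), the receptor that switches on fat storage genes, was low in both groups. It was at 2.29, 1.22 and 0.985 CPM in GFP 1, 2 and 3, against 1.77 and 0.628 CPM in bulk 1 and 2. The groups overlapped, and the log2 change of 0.33 ± 0.56, with an interval of -0.95 to 1.62, was not called. Without GFP replicate 1 it was -0.11, and without bulk replicate 2 it was -0.25, so its direction rested on single libraries. Pparg overlaps Gm44079 on the opposite strand. Per kilobase, Cidea RNA was 3.31, 4.19 and 2.36 times that of Pparg in GFP 1, 2 and 3. In bulk 1 and 2 it was 5.27 and 6.83 times. These ratios did not overlap between the groups, though the CPM of each gene did. The share of all gene pairs that do not overlap was not computed, so nothing is read from this.

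Of 13 tested genes of the sebocyte list, Scd1, Scd3 and Fads1 fell and no other was called by edgeR. The log2 change was below 0 for 10 of the 13, with a median of -0.75. With the replicate block 1 was called higher and 8 lower, beside 16.4% and 19.7% of all genes tested. At an unadjusted p below 0.05 there were 8 of the 13, a level that 15.8% of all genes tested reached. The list summed to 2765 to 3986 CPM in sorted libraries and 2910 and 3448 CPM in bulk libraries, most of it from Krt79, which the sebaceous duct and upper follicle also express and which is one of the 3 genes of the list with a log2 change above 0. Awat1, a wax synthesis enzyme of the gland, was at 0 to 0.0754 CPM in sorted libraries and 0.305 and 0.936 CPM in bulk libraries. Awat2, of the same list, was more abundant and overlapped between the groups, at 1.18 to 2.39 CPM in sorted libraries and 1.37 and 1.64 CPM in bulk libraries. Its log2 change was 0.26 and was not called. The part of sebocytes in the Cidea and Pparg values was not tested.

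The title number went with the level of several members. Plin2, Plin3, Cidea and Pparg were each higher in the library numbered 4143 than in that numbered 4145, both among sorted and among bulk libraries. For Cidea the difference between numbers, 3.98 against 2.68 CPM in sorted cells and 4.90 against 2.25 CPM in bulk cells, was larger than the difference between the group means of 2.63 and 3.57 CPM. Hilpda was the exception among the abundant members, with bulk 1 and bulk 2 at 8.94 and 9.09 CPM.

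The genes that make and break down droplet lipid were examined as fixed lists around the members. Of 116 genes in 7 lists, 110 were tested and edgeR called 3, or 2.73%, beside 5.28% of all genes tested. Nothing is read from this share, as the lists were chosen with earlier results of these data known. The 3 called genes, Soat1, Dgat2 and Fabp4, were all lower in sorted cells. Among 18 tested genes of triglyceride and sterol ester synthesis, Soat1, which esterifies cholesterol for storage, fell to 2.75, 2.10 and 1.96 CPM in GFP 1, 2 and 3, against 18.6 and 17.9 CPM in bulk 1 and 2. Its log2 change was -3.01 ± 0.24, at an edgeR adjusted p = 4.62e-04. Dgat2, which adds the last fatty acid of a triglyceride, fell to 51.3, 55.5 and 41.8 CPM in sorted libraries, against 154.9 and 110.1 CPM in bulk libraries. Its log2 change was -1.42 ± 0.22, at an edgeR adjusted p = 0.0083. The Dgat2 call was lost without bulk replicate 1 (edgeR adjusted p = 0.0767). The median log2 change of this list was -0.09, against 0.05 over all genes tested. At an unadjusted edgeR p below 0.05 there were 9 of the 18, beside 15.8% of all genes tested. With the replicate block 4 genes of the list were called higher and 6 lower, beside 16.4% and 19.7% of all genes tested. DESeq2 called 5 genes of this list and limma-voom 2.

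No gene of lipolysis or droplet assembly was called. For the 10 genes of lipolysis the count was 0 in edgeR, DESeq2 and limma-voom, while 2 had an unadjusted edgeR p below 0.05, and the list median was -0.16. Pnpla2, that lipase, was at 67.8, 68.2 and 47.2 CPM in GFP 1, 2 and 3, against 67.5 and 66.2 CPM in bulk 1 and 2. Abhd5, its activator and the most abundant gene of this list, was at 110 ± 20.2 CPM in sorted cells and 113 ± 29.4 CPM in bulk cells (SD, n = 3 and 2). For 17 tested genes of droplet biogenesis and surface the count was 0 in edgeR and limma-voom and 2 in DESeq2, while 4 had an unadjusted edgeR p below 0.05, and the median was -0.03. Rab18, a small GTPase of the droplet surface, was at 144 ± 3.43 CPM in sorted cells and 148 ± 37.0 CPM in bulk cells. With the replicate block, 0 genes of lipolysis were called higher and 3 lower, and 3 of droplet assembly higher and 5 lower. Of all genes tested, that fit called 16.4% higher and 19.7% lower. In the main fit 15.8% of all genes tested had an unadjusted edgeR p below 0.05.

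In the PPAR lists, edgeR called Fabp4 alone. Among the target genes DESeq2 and limma-voom each called 2, Fabp4 and, higher, Cyp4b1, a fatty acid hydroxylase named here after its values were seen. Fabp4, a fatty acid carrier of fat cells, macrophages and capillaries, fell to 0.848, 0.0754 and 0.150 CPM in GFP 1, 2 and 3, against 20.6 and 16.7 CPM in bulk 1 and 2. This was -5.69 ± 0.79 on the log2 scale, at an edgeR adjusted p = 0.00505. GFP 1 held most of the sorted counts, 67 beside 5 and 14 in GFP 2 and 3, and without GFP replicate 1 the log2 change was -7.30. Markers of myeloid and endothelial cells were also lower in sorted cells. The myeloid list summed to 28.9 to 53.2 CPM in sorted libraries and 317 and 320 CPM in bulk libraries, and the endothelial list to 1.49 to 2.47 CPM in sorted libraries and 3.94 and 5.03 CPM in bulk libraries. Their part in the Fabp4 value was not tested. Of the 19 tested PPAR target genes 14 had a log2 change above 0 and 5 below, with a median of 0.31. At an unadjusted edgeR p below 0.05 there were 4 of the 19, beside 15.8% of all genes tested. With the replicate block 10 were called higher and 3 lower, beside 16.4% and 19.7% of all genes tested. For 11 tested genes of PPAR and RXR receptors and coregulators the count was 0 in edgeR, DESeq2 and limma-voom, while 2 had an unadjusted edgeR p below 0.05. Cebpa, a transcription factor of fat and skin differentiation and the most abundant of them, was at 886 ± 342 CPM in sorted cells and 705 ± 34.8 CPM in bulk cells.

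Most HIF target genes had a log2 change above 0, and edgeR called none. For these 29 genes the count was 0 in edgeR and limma-voom and 2 in DESeq2. At an unadjusted edgeR p below 0.05 there were 5 of the 29, beside 15.8% of all genes tested. The median log2 change of the list was 0.28, and 24 of 29, or 82.8%, were above 0, as were 54.4% of all genes tested. With library size alone as the scaling, 21 of 29, or 72.4%, were above 0, beside 43.7% of all genes. The log2 changes of the list ran from -0.38 to 0.997, below the 1.30 of Hilpda. The list summed to 4449, 4951 and 3801 CPM in GFP 1, 2 and 3, against 3397 and 3896 CPM in bulk 1 and 2, so that GFP 3 lay below bulk 2. With the replicate block 13 were called higher and 2 lower, beside 16.4% and 19.7% of all genes tested. Once gene length and GC content were also corrected for, 12 were called higher and 0 lower, beside 16.5% and 14.8%. Bhlhe40, a transcription repressor and the most abundant, was at 888 ± 372 CPM in sorted cells and 634 ± 326 CPM in bulk cells. For 6 tested genes of HIF factors and oxygen sensing the count was 0 in edgeR, DESeq2 and limma-voom, while 2 had an unadjusted edgeR p below 0.05. Hif1a, the oxygen-regulated subunit, was at 166 ± 17.7 CPM in sorted cells and 138 ± 10.8 CPM in bulk cells.

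**Figure D4:**
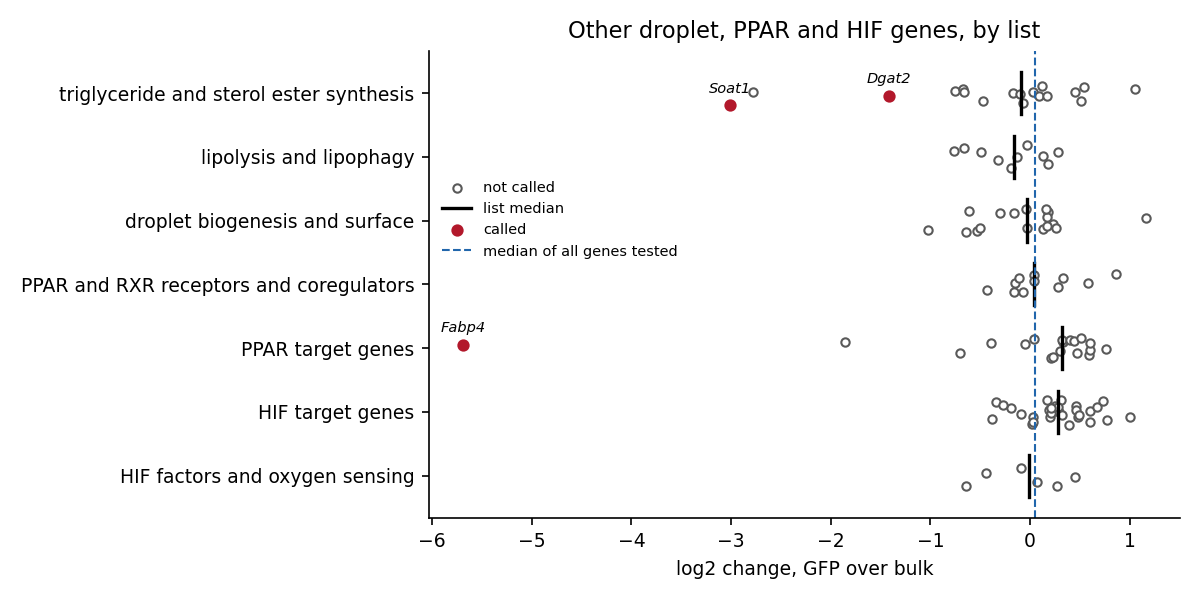
Log2 change, GFP over bulk, of every tested gene in 7 lists of droplet lipid, PPAR and HIF genes; each point is a gene, red points were called by edgeR, black bars are list medians and the dashed line is the median of all genes tested, 0.05. Soat1, Dgat2 and Fabp4 are the 3 called genes, and the medians run from -0.16 for lipolysis to 0.31 for PPAR targets.

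The genes nearest to Hilpda across the 5 libraries were sought with all other members left out. This search cannot show whether Hilpda moves with droplet genes, since it names only the 5 nearest genes. Likeness was the root mean square difference in log2 CPM after centring each gene on its own mean. It was taken over 8818 protein-coding genes, none of them a member, whose log2 CPM averaged 3 or more. Tnfrsf12a, a receptor of the TNF family, was nearest at 0.16, followed by Cavin3, a coat protein of caveolae, at 0.17. Mt2, a metal-binding metallothionein, was also at 0.17, the gene Pxdc1 at 0.18 and Krt14, the main type I keratin of basal keratinocytes, at 0.19. The median of all genes compared was 0.64. Krt14 was at 13020, 11030 and 9487 CPM in GFP 1, 2 and 3, against 5449 and 6294 CPM in bulk 1 and 2. The sums of the basal list, of which Krt14 is a member, moved with Hilpda, and their part in its level was not tested. The 3 genes nearest to Plin2 were Ctps2, a nucleotide synthesis enzyme, Cox19, a copper protein of mitochondria, and Cbr3, a carbonyl reductase, each at 0.04 against a median of 0.32.

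**Figure D5:**
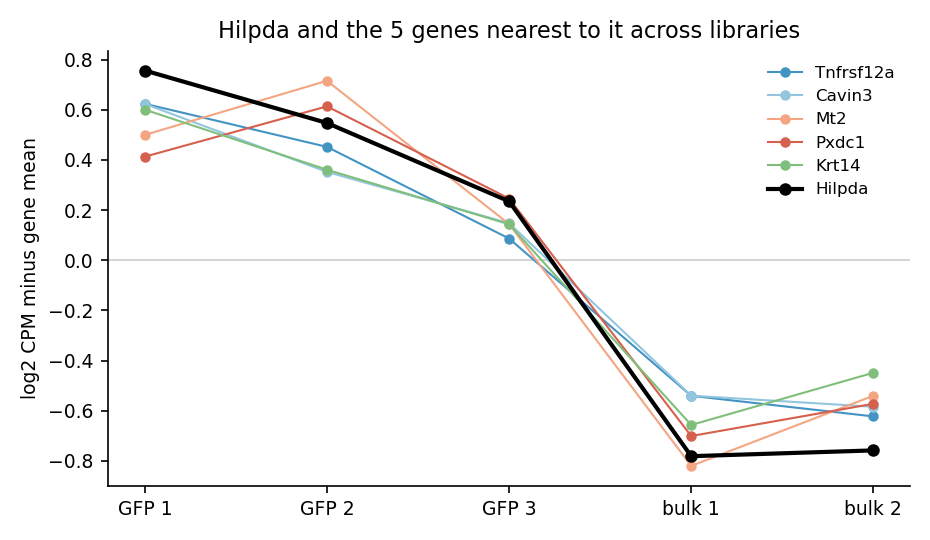
Log2 CPM of Hilpda (black) and the 5 genes nearest to it, each minus its own mean, in the 3 GFP-sorted and 2 bulk libraries; lines join the points of 1 gene and carry no order. All 6 genes lie above their mean in the sorted libraries and below it in the bulk libraries. Members other than Hilpda were left out of the search.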

How the data were processed

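The authors deposited a table of raw counts per versioned Ensembl mouse gene, 1 column per library, not normalized. STAR and the build GRCm39 are named in the submitters' processing notes. Tool versions, counter, annotation, strandedness and filtering are not given there or in the labels. Symbols (52073 of 56691 IDs), transcript lengths and GC content came from GENCODE M21, and promoter sequences from the RefSeq table, both on GRCm38, matched by gene and not by coordinate. RefSeq windows were found for 9 of the 10 members.

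The members and lists were chosen with earlier results of these data known. All genes were fitted with edgeR 4.0.16 in R 4.3.3: filterByExpr (minimum count 10, minimum total 15), TMM scaling, a group term and the two-sided quasi-likelihood test, with Benjamini-Hochberg adjustment over all genes and a threshold of 0.05, on 3 residual degrees of freedom. The fit was tested on simulated data. Intervals are at the 95% level and, for small counts, exact Poisson or binomial, covering counting error only, since reads carry no molecular identifiers. No label says whether replicate libraries were taken from different animals, so p-values measure only the spread between these libraries. Named from each list were up to 3 called genes with the smallest p or, with none called, its most abundant gene. Named beside Hilpda and Plin2 were the 5 and 3 non-member genes most like them. Pnpla2, Awat1, Awat2, Lrig1 and the defining adipocyte markers were named outside this rule. No set test was run.

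The title numbers 4143 and 4145 are shared by GFP 1 and bulk 1 and by GFP 2 and bulk 2, and GFP 3 (4146) stands alone. They were taken as animals, which the labels do not state, and under the same number the bulk library is labelled WT and the sorted one Lrig1 positive. Across genes, the difference of bulk 1 and 2 correlated with that of GFP 1 and 2 (Pearson r = 0.474; genes are not independent replicates). The blocked fit has 1 residual degree of freedom, and its group difference does not draw on GFP 3. Alternatives were DESeq2 1.42.0 (size factors and Wald test), limma-voom (limma 3.58.1), upper quartile and library size scaling, other filters, robust dispersion, the replicate block, a loess correction for length and GC content (span 0.3), another gene length, and leaving out each library.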

Additional observations from a re-analysis of the deposited data

How the results depend on the processing

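The number of genes called, 982, was 1499 in DESeq2's Wald test (188 higher), 1918 without a filter on low counts (258 higher), 6692 with the replicate block (3040 higher, 3652 lower) and 5678 when the replicate block was joined to the correction for gene length and GC content (2996 higher, 2682 lower). Higher calls, 27, were 10 with library size alone, which moved the median log2 change of all genes to -0.07 from 0.05, and 74 with the correction alone. When 1 library was left out, all calls ran from 480 (without bulk replicate 2) to 1205 (without GFP replicate 3), and higher calls from 1 to 96 in the same fits. Of the members, 2 were called. This was 1 with the DESeq2 Wald test, with a minimum of 1 CPM, with robust dispersion and with the correction, 4 with the replicate block, and 0 to 1 without 1 library. Of the listed droplet, PPAR and HIF genes, 3 were called. This was 5 with library size alone, 11 with the DESeq2 Wald test, 10 without a filter, 6 with the correction, 56 with the replicate block, 48 with block and correction, and 2 to 8 without 1 library, the 8 being without GFP replicate 3. Hilpda was higher in all 16 alternatives run and called in 14. Its log2 change was 1.17 to 1.42 without 1 library, and the 2 lost calls were at 1.29 and 1.30 without a bulk library, where the lone bulk library is assumed to vary like the others. Plin2 and Plin3 were above 0 in all 16, and called in 1 and 2 of them. Plin4 was lower in the 11 in which it was tested. Without 1 library Cidea ran from -0.91 to 0.23 and Pparg from -0.25 to 1.26, both changing sign, and neither was called in any alternative. Over the union of exons the ratio per kilobase in sorted cells was 1.88 for Hilpda over Plin2, against 1.14, and 2.10 for Plin3 over Plin2, against 1.17. This is due to the longer exon union of Plin2, of 3512 against 1888 bases. The cause of the other changes was not tested.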

Other observations

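GFP replicate 3 was often the lowest library in several lists. It was the lowest of the 5 libraries for 10 of the 19 tested PPAR target genes, or 52.6%, and for 21.9% of all genes tested. The count was 4 of 10 for lipolysis, or 40%, and 6 of 17 for droplet biogenesis and surface, or 35.3%. For triglyceride and sterol ester synthesis it was 5 of 18, or 27.8%. For HIF target genes it was 6 of 29, or 20.7%, and for HIF factors and oxygen sensing 1 of 6, or 16.7%. For PPAR and RXR receptors and coregulators it was 1 of 11, or 9.09%. By name, and chosen after their values were seen, Pdk4, a brake on glucose oxidation, was at 94.2, 125.7 and 30.7 CPM in GFP 1, 2 and 3, against 59.5 and 74.8 CPM in bulk 1 and 2. Angptl4, an inhibitor of lipoprotein lipase, was at 49.4, 51.1 and 19.1 CPM in GFP 1, 2 and 3, against 26.3 and 26.8 CPM in bulk 1 and 2. Cidea was likewise lowest in GFP 3, at 1.22 CPM. GFP 3 is also the one library with abundant Xist and a title number of its own, and the part of either in these values was not tested.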
